A study of Mus musculus with 6 samples.

Results

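Genes of cholesterol synthesis and sterol handling were read in mouse skin with and without Sox4. The 31 genes were taken from a chosen list, which does not cover every enzyme of the pathway, and found by matching probe accessions to RefSeq symbols. All 31 had a probe, 43 probes in all, and all 31 were among the 25666 genes and unnamed transcripts tested. The skin came from 6 untreated male mice of mixed C57Bl6/129Sv background, labelled as telogen, the phase in which hair follicles rest. Hair shaft and root sheath genes went against that label in 2 libraries: their score, the median over genes of the log2 level minus the gene's WT mean, was 5.13 and 4.40 in KO replicates 1 and 2, against -0.10 in KO replicate 3 and -0.16 to 0.25 in WT. The 3 wild-type (WT) mice were 20, 19 and 18 weeks old, and the 3 mice with Sox4 conditionally deleted in skin (KO) were 17, 18 and 16 weeks old. Each skin was hybridised to a 1-colour Agilent array. The sources used here do not name the driver of the deletion, the cells it reaches or the body site of the skin. Ages differed within each group, so the arrays were treated as separate animals; no label states this, and p-values measure only the spread between these samples.

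Cholesterol is built from acetyl-CoA through mevalonate and isoprenoid diphosphates to squalene, which is closed into lanosterol and then trimmed and reduced to cholesterol. The transcription factor SREBP2, and SREBP1 for fatty acid enzymes, is escorted by Scap from the endoplasmic reticulum when sterols are low, while Insig proteins hold it back when sterols are high. In skin, the sebaceous gland and the differentiating epidermis are known for making sterols, the first for sebum and the second for the lipid sheets of the barrier. Because the samples were whole skin, fewer cells of a type and less RNA per cell cannot be told apart.

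The promoters shown belong to Hsd17b7, Msmo1 and Lss, which with Ggps1 were the synthesis enzymes of smallest p, and to Hmgcs1, the enzyme whose window held a sterol element. They are the 250 bases before the start site, from RefSeq on build GRCm38.p6, at chr1:169969206-169969455 (minus strand), chr8:64733579-64733828 (minus strand), chr10:76531355-76531604 (plus strand) and chr13:119690101-119690350 (plus strand). Each is written 5′ to 3′ on its gene's strand. Capitals mark the letters searched on both strands: TCACNCCAC (a form of the sterol regulatory element), CCAAT (the box bound by NF-Y, read as ATTGG on the other strand) and CACGTG (an E-box, which SREBP1 also binds). The motifs do not overlap in these windows.
Hsd17b7: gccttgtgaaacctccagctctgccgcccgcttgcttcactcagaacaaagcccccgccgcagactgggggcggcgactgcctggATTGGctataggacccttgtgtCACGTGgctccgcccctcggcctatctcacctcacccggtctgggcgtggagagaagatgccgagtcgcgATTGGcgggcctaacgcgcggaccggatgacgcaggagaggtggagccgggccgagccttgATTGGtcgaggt
Msmo1: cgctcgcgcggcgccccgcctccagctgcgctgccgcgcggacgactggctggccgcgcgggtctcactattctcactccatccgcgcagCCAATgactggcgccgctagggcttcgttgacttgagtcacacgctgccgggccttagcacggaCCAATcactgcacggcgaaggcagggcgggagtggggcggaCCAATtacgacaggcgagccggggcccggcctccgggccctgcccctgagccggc
Lss: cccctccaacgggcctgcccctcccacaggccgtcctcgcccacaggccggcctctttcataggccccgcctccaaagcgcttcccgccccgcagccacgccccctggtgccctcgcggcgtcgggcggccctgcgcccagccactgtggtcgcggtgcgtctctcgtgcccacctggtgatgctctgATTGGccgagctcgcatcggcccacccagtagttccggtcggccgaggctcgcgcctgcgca
Hmgcs1: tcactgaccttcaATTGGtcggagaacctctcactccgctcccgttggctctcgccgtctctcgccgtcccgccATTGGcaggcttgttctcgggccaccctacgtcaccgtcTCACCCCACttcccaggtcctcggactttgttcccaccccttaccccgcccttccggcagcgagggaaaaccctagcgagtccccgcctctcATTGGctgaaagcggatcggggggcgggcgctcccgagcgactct
The Hsd17b7 window held 3 CCAAT boxes and 1 E-box, Msmo1 held 3 CCAAT boxes and Lss held 1. Hmgcs1 had the TCACNCCAC match together with 3 CCAAT boxes. Promoters were matched for 25 of the 31 genes; Fdps, Fdft1, Sqle, Stard4, Npc1 and Abcg1 had no entry. Of these 25 genes, 22 (88.0%) had a CCAAT box in at least 1 window, against 37.5% of 27025 genes. CACGTG was found in 6 genes (24.0%, against 6.86% of all genes), namely Hsd17b7, Sc5d, Dhcr7, Scap, Insig1 and Abca1. TCACNCCAC occurred in Hmgcs1 alone (4.0%, against 1.22%). These are letter matches in this window and no evidence of binding.

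Array quality and the deletion were read first. Between 52.1% and 66.4% of probes were well above background per array, and no spot was saturated. Sox4 itself read 503.7, 764.2 and 735.2 signal units in WT against 78.7, 69.0 and 59.5 in KO, a difference of -3.56 on the log2 scale (SE 0.14; limma adjusted p = 0.00169); the sources used here do not say whether that probe is inside the deleted stretch. All signed values below are KO minus WT by the scanner files. In the deposited value table each column headed WT follows a KO array and each column headed KO follows a WT array (correlations of 0.942 to 0.964, against -0.594 to -0.216 with the array of the heading), so its headings would turn every sign. Levels are log2 signal minus the array's 75th percentile, and levels of different genes are not compared, since each probe has its own brightness.

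Most of the sterol genes lay somewhat lower in KO skin, and 1 of them, Hsd17b7, had the widest difference. Of the 31 genes, 28 had a negative log2 fold change, with a median of -0.33, against a median of -0.08 and 62.7% negative over all features. Within array slide 1, 1 array against 1, the median was -0.04 with 17 negative, against 0.02 and 45.7% negative over all features. Within slide 2 it was -0.39 with 30 negative, against -0.10 and 61.8%. The level of skeletal muscle markers partly goes with genotype. With it as a covariate the median was -0.03 with 21 negative, against -0.01 and 51.5%. Several marker lists differed between the groups too. Muscle markers (20 of 20, median 1.72) and hair shaft and root sheath genes (13 of 14, median 3.20) were mostly positive. Mostly negative were sebaceous gland (17 of 19, median -0.40) and T and natural killer cell markers (11 of 11, median -1.10). So were basal (8 of 9, median -0.21) and differentiating epidermis markers (11 of 11, median -0.24). With KO replicates 1 and 2 left out, a setting added after the data were seen that leaves KO replicate 3 alone against WT, the median was -0.27 with 29 negative, against -0.01 and 51.5% over all features. None passed the limma adjusted threshold of 0.05, where 0.0117% of all features did. At an unadjusted p under 0.05, 9 genes (29.0%) were lower and 0 higher, against 5.15% lower and 6.32% higher over all features. In 11 genes (35.5%) every KO array lay below every WT array, against 11.4% of all features; in none did every KO array lie above, against 7.77%. All representative probes were well above background on all 6 arrays, so no gene entered through 1 group alone. The smallest p that exact two-sided permutation of 3 against 3 arrays can give is 0.1.

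**Figure D1:**
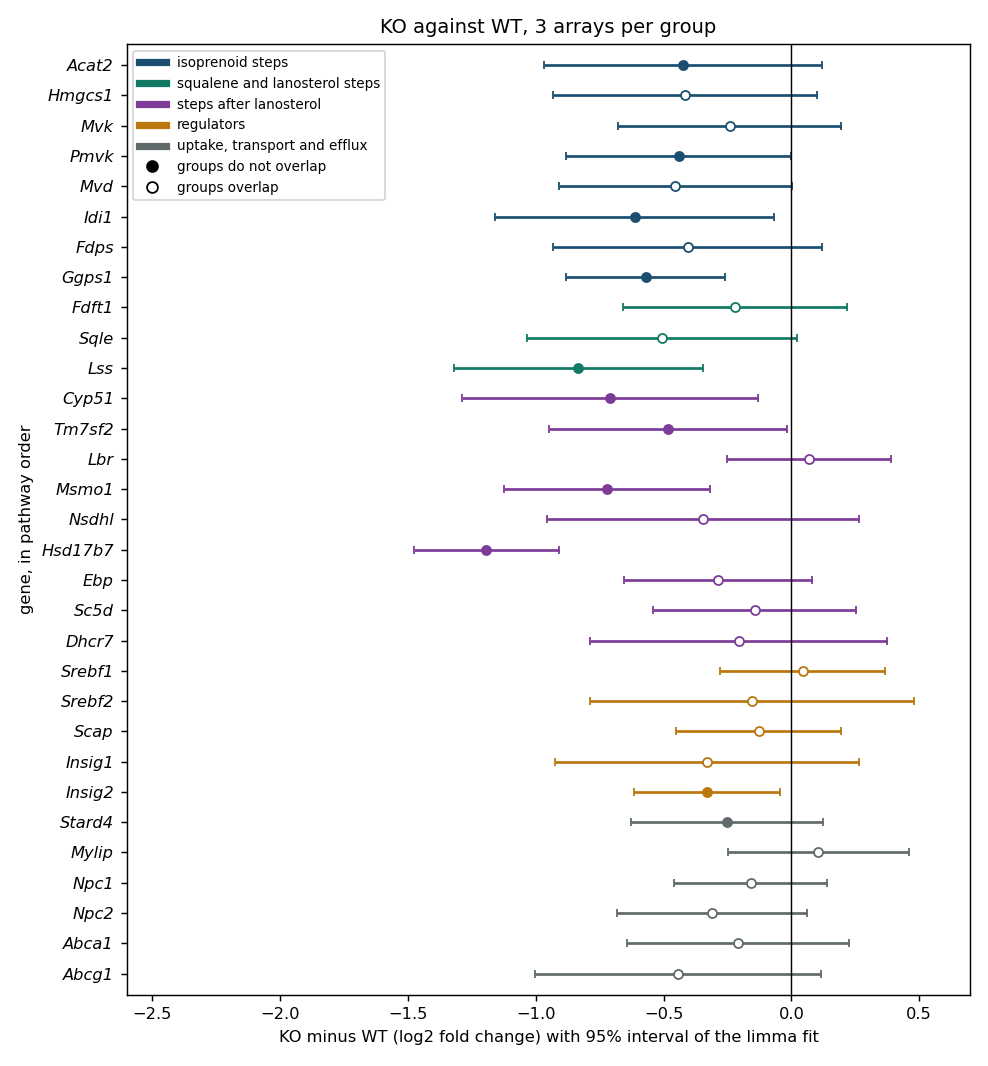
KO minus WT log2 fold change (horizontal axis) of 31 sterol genes in pathway order, with the 95% interval of the limma fit over 3 arrays per group; colour gives the role, and filled points are the 11 genes whose groups do not overlap. Hsd17b7 stands at -1.19, below Lss at -0.83, and 28 of 31 points lie left of 0.

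Hsd17b7 encodes the 3-ketosteroid reductase that works beside Nsdhl when methyl groups are removed from lanosterol-derived sterols; it can also reduce estrone. Its brighter probe read 2221, 2874 and 2195 signal units in WT replicates 1, 2 and 3 and 1484, 1208 and 1227 in KO. Scaled to each array's 75th percentile, the log2 levels were 2.55, 2.56 and 2.33 in WT and 1.29, 1.25 and 1.31 in KO. The KO arrays agreed closely and lay 1.01 log2 units below the lowest WT array, where the next widest such gap among the sterol genes was 0.37, for Lss. The difference was -1.19 (SE 0.12, 95% interval -1.48 to -0.91), or 2.29-fold lower, with limma adjusted p = 0.0715 and place 11 of 25666 by p. The dimmer probe gave levels of 2.08, 2.34 and 1.85 in WT and 1.07, 0.96 and 1.09 in KO, a difference of -1.05 without overlap. Hsd17b7 passed the threshold with normexp background correction and quantile normalization (-1.12, adjusted p = 0.0237) and without WT replicate 1 (-1.16, adjusted p = 0.0443). It did not pass under the other fitted alternatives, whose adjusted p ran up to 0.844, while its value stayed between -1.29 and -1.05 over all of them.

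**Figure D2:**
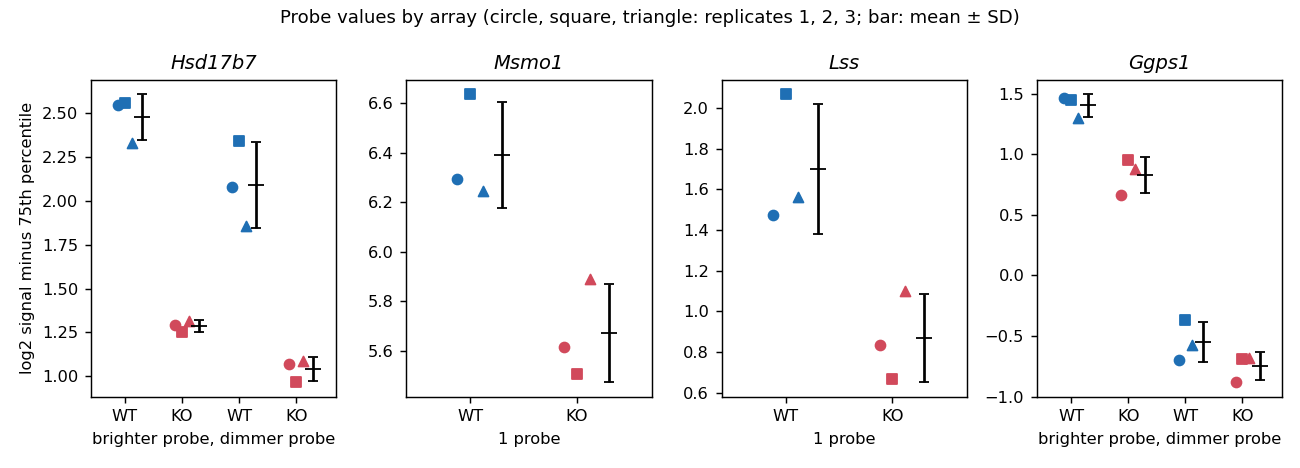
Log2 signal minus the array's 75th percentile for each probe of Hsd17b7, Msmo1, Lss and Ggps1; blue points are WT and red points KO arrays, bars give mean ± SD of 3 arrays, and vertical scales differ between panels. Both Hsd17b7 probes separate the groups, while the dimmer Ggps1 probe overlaps.

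The isoprenoid steps run from Acat2, the thiolase that joins acetyl-CoA units, to Fdps and Ggps1, which make farnesyl and geranylgeranyl diphosphate. All 8 genes were on the negative side, between -0.61 and -0.24 (median -0.43). Ggps1, which serves protein prenylation rather than sterols, had the smallest p of them. Its log2 levels were 1.46, 1.45 and 1.29 in WT and 0.67, 0.95 and 0.88 in KO, a difference of -0.57 (SE 0.13, limma adjusted p = 0.289). WT replicate 1, the lowest WT array for 19 of the 31 genes, was the highest array for Ggps1. Its dimmer probe differed by -0.20 and overlapped between groups, so the 2 probes did not give the same size.

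Idi1, the isomerase that makes the allylic building block, read 3.76, 4.40 and 3.71 in WT against 3.35, 3.11 and 3.57 in KO (-0.61, SE 0.23). Pmvk, the second kinase acting on mevalonate, read 4.69, 5.25 and 4.86 against 4.54, 4.31 and 4.63 (-0.44, SE 0.18). Acat2 read 0.19, 0.75 and 0.26 against 0.15, -0.40 and 0.18 (-0.42, SE 0.23). These 3 did not overlap between groups, but the gaps were narrow: 0.14, 0.06 and 0.01 log2 units. Acat2 has a close mouse copy, Acat3, and whether the probe also binds its transcript was not tested. Hmgcs1, the synthase that forms HMG-CoA (-0.42), Mvd, which decarboxylates to isopentenyl diphosphate (-0.45), Fdps (-0.41) and mevalonate kinase Mvk (-0.24) overlapped between groups.

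The squalene and lanosterol steps are those of Fdft1, which joins farnesyl units to squalene, Sqle, which oxidises squalene, and Lss, which closes the ring. Lss read 1.47, 2.07 and 1.56 in WT against 0.83, 0.67 and 1.10 in KO, a difference of -0.83 (SE 0.20, limma adjusted p = 0.289), or 1.78-fold lower. Every KO array was below every WT array, with WT replicate 2 far above the other WT arrays. Sqle read 4.27, 4.98 and 4.66 against 4.23, 3.86 and 4.31 (-0.51, SE 0.22), and KO replicate 3 lay above WT replicate 1. Fdft1 differed by -0.22 (SE 0.18) with a 95% interval of -0.66 to 0.22; its dimmer probe, well above background on 2 of the 3 KO arrays, gave -1.03.

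After lanosterol, 8 of 9 genes were on the negative side (median -0.35). Msmo1, the C4 methyl oxidase that acts just before Nsdhl and Hsd17b7, read 6.29, 6.64 and 6.24 in WT against 5.62, 5.50 and 5.89 in KO. The difference was -0.72 (SE 0.17, limma adjusted p = 0.289), or 1.65-fold lower, without overlap. Cyp51, the lanosterol demethylase, read 1.15, 1.63 and 1.06 against 0.55, 0.21 and 0.95 (-0.71, SE 0.24), and its gap between groups was 0.12. Tm7sf2, a C14 sterol reductase, read 2.41, 3.005 and 2.46 against 2.32, 2.04 and 2.07 (-0.48, SE 0.19), and its other probe gave -0.49.

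Lbr, the lamin B receptor, carries the same reductase activity as Tm7sf2 and was the exception among the enzymes, at 0.07 (SE 0.13, 95% interval -0.25 to 0.39). The sign of Lbr rested on the probe, since its dimmer probe gave -0.19 and the mean of both gave -0.06. Nsdhl, the C4 decarboxylase that hands its product to Hsd17b7, differed by -0.35 (SE 0.25) with KO replicate 1 above 2 of the WT arrays. Ebp, the sterol isomerase (-0.29), Sc5d, the desaturase (-0.14), and Dhcr7, the last reductase (-0.21), overlapped between groups.

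**Figure D3:**
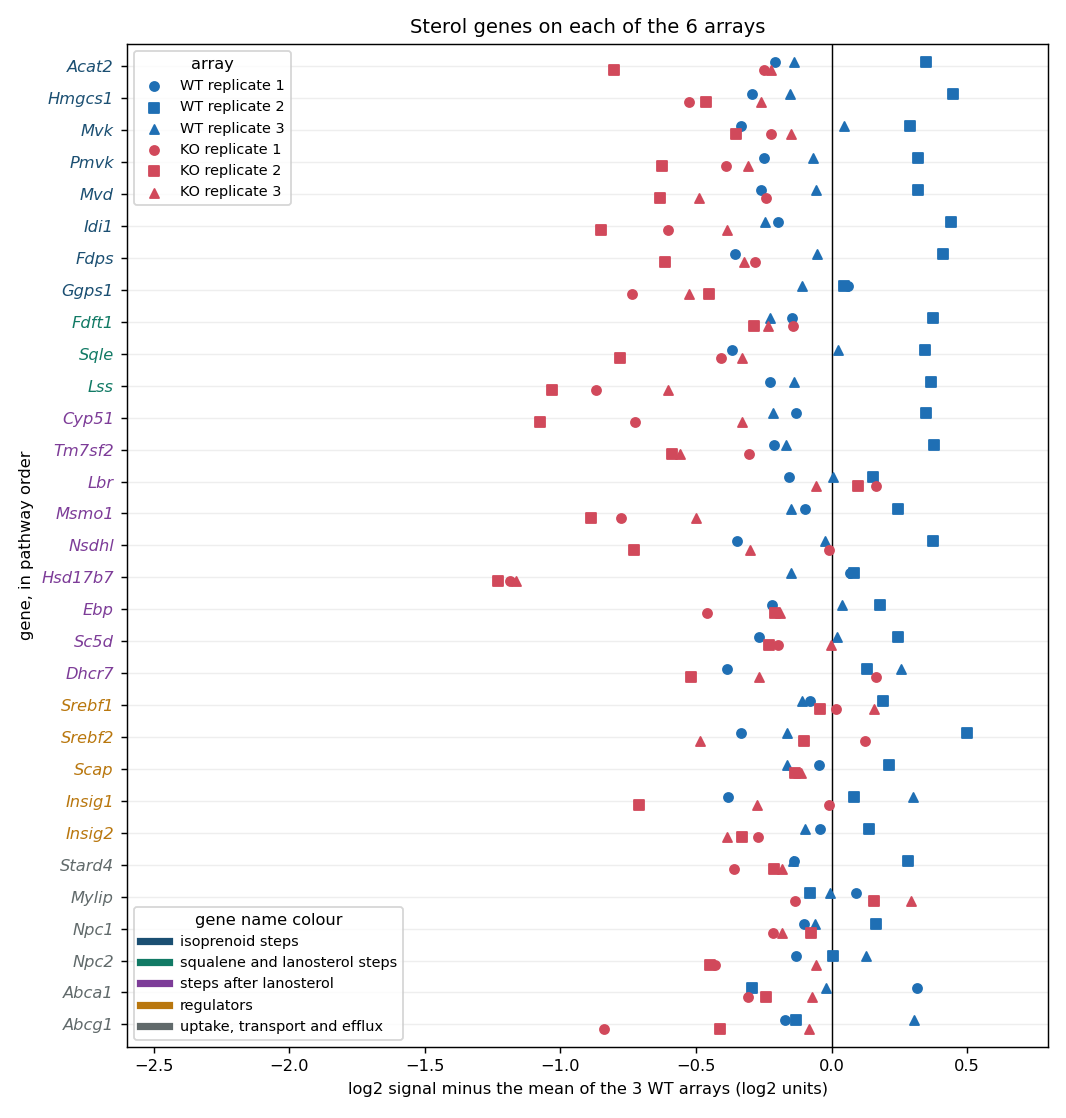
Log2 signal of each of 31 sterol genes on each array, minus the mean of the gene's 3 WT arrays; blue marks are WT and red marks KO, with shape giving the replicate. WT replicate 2 is the highest array for 23 genes and KO replicate 2 the lowest for 17, and WT replicate 1 lies above all KO arrays for 13.

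Regulators of the pathway had a median of -0.15, with 4 of 5 negative. Srebf2, which encodes SREBP2, differed by -0.15 (SE 0.26) and Srebf1 by 0.04 (SE 0.13), with 95% intervals of -0.79 to 0.48 and -0.28 to 0.37. Scap differed by -0.13 (SE 0.13). Insig1, itself a sensitive SREBP target, read -0.77, -0.31 and -0.09 in WT against -0.40, -1.10 and -0.66 in KO (-0.33, SE 0.25), and the groups overlapped. Insig2 read 3.62, 3.80 and 3.56 against 3.38, 3.33 and 3.27, and every KO array lay below every WT array (-0.33, SE 0.12, limma adjusted p = 0.389). The second probe of Insig2 gave -0.29, also without overlap, whereas that of Srebf2 gave -0.38.

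Uptake, transport and efflux genes lay between -0.44 and 0.10. Stard4, which carries cholesterol between membranes and is an SREBP2 target, read 1.16, 1.58 and 1.16 in WT against 0.94, 1.09 and 1.12 in KO (-0.25, SE 0.16), a separation of 0.04. Npc2, the soluble lysosomal cholesterol carrier, read 4.49, 4.63 and 4.75 against 4.19, 4.17 and 4.57 (-0.31, SE 0.15). Its membrane partner Npc1 differed by -0.16 (SE 0.12). Abcg1 and Abca1 export cholesterol and are induced by liver X receptors. Abcg1 read 2.16, 2.19 and 2.63 against 1.49, 1.92 and 2.24 (-0.44, SE 0.23), and Abca1 differed by -0.21 (SE 0.18). Mylip, the ubiquitin ligase that removes LDL receptors and is also induced by liver X receptors, differed by 0.10 (SE 0.15). In 10 of the 12 genes with 2 probes both probes were negative, in Mylip both were positive, and in Lbr they disagreed.

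The array slides did not give the same picture. Slide 1 held WT replicate 1 and KO replicate 3, slide 2 held WT replicates 2 and 3 and KO replicate 1, and KO replicate 2 was alone on slide 3. Within slide 1 the median over the 31 genes was -0.04 with 17 negative, and within slide 2 it was -0.39 with 30 negative; over all features 45.7% and 61.8% were negative. On slides 1 and 2, Hsd17b7 gave -1.23 and -1.15, Ggps1 -0.59 and -0.71, and Msmo1 -0.40 and -0.82. Lss gave -0.37 and -0.98, and Tm7sf2 -0.35 and -0.41. These 5 genes were picked after the values were seen, and the share of all features with such differences was not counted. Insig2 gave -0.34 and -0.29. Within slide 1, 11 genes turned positive, and within slide 2 Srebf1 (-0.02) and Mylip (-0.09) turned negative. Hmgcs1, Fdps and Sqle gave 0.03, 0.03 and 0.04 on slide 1 and -0.67, -0.46 and -0.59 on slide 2. Sc5d gave 0.27 and -0.33, and Abcg1 gave 0.09 and -0.92. The others that turned positive on slide 1 were Mvk (0.19), Dhcr7 (0.12), Insig1 (0.11), Npc2 (0.08), Nsdhl (0.05) and Ebp (0.03). With slide as a block the median was -0.25, against -0.05 over all features. In that fit Hsd17b7 was at -1.19 (limma adjusted p = 0.448) and Dhcr7 changed sign to 0.03.

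**Figure D4:**
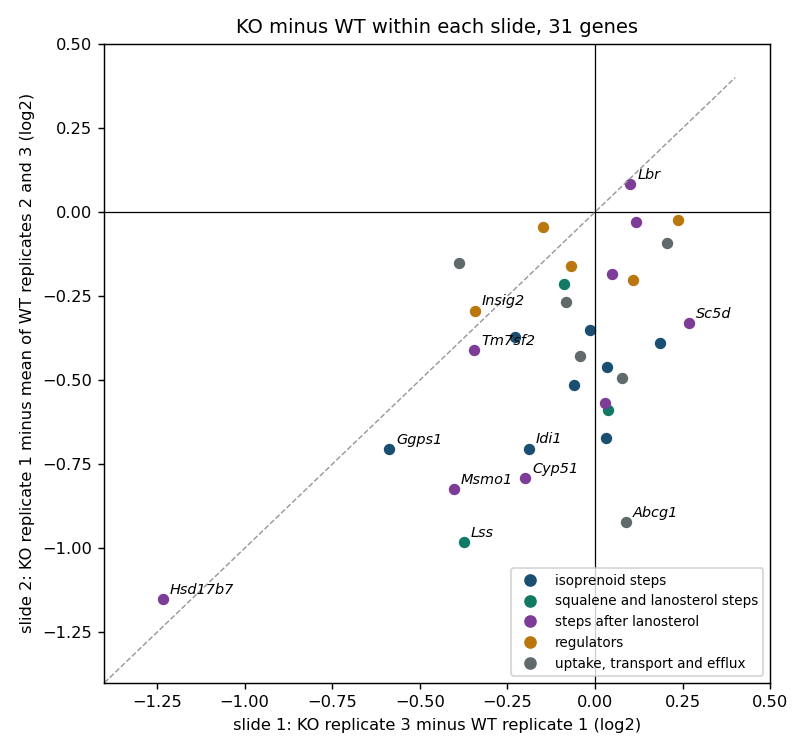
KO minus WT log2 difference of each of 31 sterol genes within slide 1 (horizontal axis, 1 array against 1) and within slide 2 (vertical axis, 1 KO array against the mean of 2 WT arrays); the dashed line marks equal values. Hsd17b7 is near the line at -1.23 and -1.15, while 30 genes are negative on slide 2 and 17 on slide 1.

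WT replicate 2 was the highest of all 6 arrays for 17 of the 20 synthesis enzymes. The score of the 20 enzymes, the median over genes of the level minus the gene's WT mean, was -0.22, 0.33 and -0.09 in WT replicates 1, 2 and 3 and -0.35, -0.62 and -0.32 in KO. WT replicate 1 lay nearest to the KO arrays. Without WT replicate 1 the median over the 31 genes was -0.52, against -0.10 over all features. There 21 genes (67.7%) did not overlap, all lower, against 26.4% of all features lower in the same arrays. Calls over all features went from 3 to 242 in that setting. Without WT replicate 2 the members' median was -0.25, against -0.07 over all features.

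Markers of other cells also differed between the arrays. Of the 20 skeletal muscle markers, none passed the adjusted threshold. At an unadjusted p under 0.05 by limma 17 of them were higher, against 6.32% of all features. Their scores were 1.14, -0.40 and -0.68 in WT against 1.74, 2.07 and 1.53 in KO. WT replicate 1 was the WT array nearest to KO here too. Every KO score lay above every WT score, so the muscle level partly goes with genotype and a fit with it cannot separate them. With the muscle marker level as a covariate the median over all features was -0.01 with 51.5% negative, beside -0.03 and 21 of 31 for the sterol genes. In that fit Hsd17b7 was at -1.29, Ggps1 at -0.71, Msmo1 at -0.53 and Lss at -0.45, while 9 genes changed sign. With age as a covariate, which also partly goes with genotype, the median over the sterol genes was -0.59 with 29 negative. Over all features it was -0.15 with 64.7% negative.

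Sebaceous gland markers, like the sterol genes, scored highest in WT replicate 2 and lowest in KO replicate 2. The same order held for differentiating epidermis markers (0.19 and -0.33). It also held for the SREBP processing, liver X receptor and sterol ester lists read below. Of 19 sebaceous markers tested, 17 were negative (median -0.40), against 62.7% of all features. At an unadjusted p under 0.05 by limma 8 of the 19 were lower and 0 higher, against 5.15% and 6.32% of all features. In 8 every KO array lay below every WT array, against 11.4% of all features. Of the basal and differentiating epidermis markers, 0 were lower or higher at that p. Their scores were -0.20, 0.17 and 0.05 in WT and -0.26, -0.62 and -0.34 in KO. Mean levels of the list ran from 3.15 to 3.50 in WT and from 2.72 to 3.16 in KO. The steroid dehydrogenase Hsd3b6 (-0.99, SE 0.16) and the fatty acid elongase Elovl3 (-0.76, SE 0.15) had the smallest p, with limma adjusted p = 0.224 and 0.289. Epidermal markers had medians of -0.21 over 9 basal and -0.24 over 11 differentiation genes, and mean levels from 5.20 to 5.55 and 5.18 to 5.64 in WT against 5.11 to 5.28 and 5.08 to 5.28 in KO. The part of these cell populations in the sterol values was not tested.

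**Figure D5:**
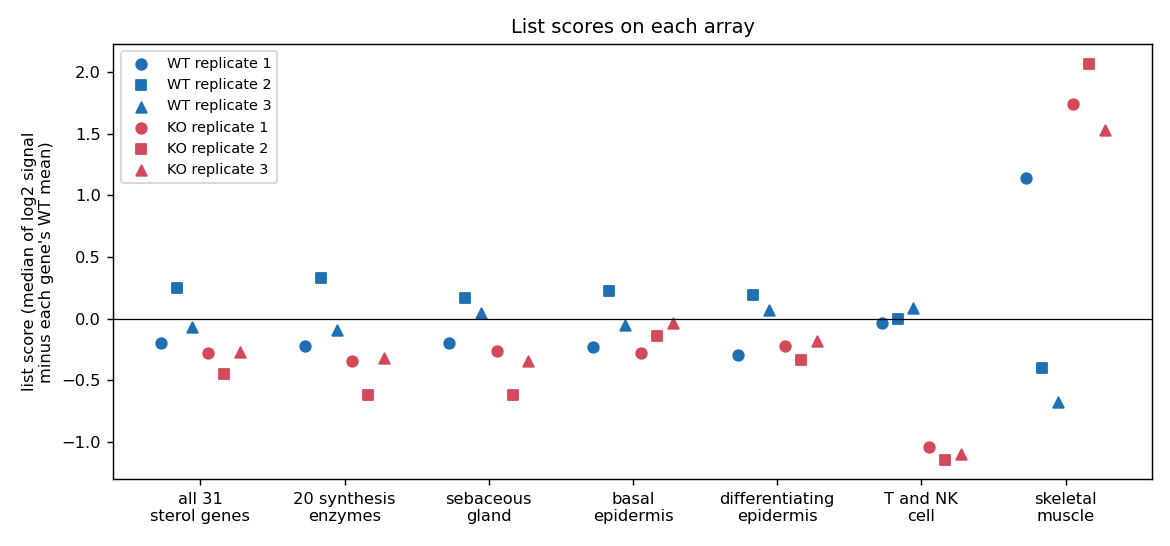
List score on each array, the median over a list's genes of log2 signal minus the gene's WT mean (vertical axis, log2 units), for all 31 sterol genes, their 20 synthesis enzymes and 5 marker lists; blue is WT, red is KO, and shape gives the replicate. Sterol, sebaceous and differentiating epidermis scores are highest in WT replicate 2 and lowest in KO replicate 2, and the muscle score of WT replicate 1 (1.14) lies near KO.

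T and natural killer cell genes had a median of -1.10, with scores between -0.04 and 0.08 in WT and between -1.14 and -1.04 in KO. At an unadjusted p under 0.05 by limma 10 of 11 were lower and 0 higher, against 5.15% and 6.32% of all features. All 11 were lower without overlap between groups, against 11.4% of all features. In KO replicate 3, without the high hair gene score, Hsd17b7 stood at 1.31, beside 1.29 and 1.25 in the other KO arrays. With those left out, which leaves 1 KO array, its difference was -1.16. The part of the hair state in the Hsd17b7 values was not tested. Medians were -0.24 for white adipocyte, -0.19 for dermal fibroblast and -0.19 for macrophage genes.

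Neighbouring pathways were read from 6 further lists. Of 15 fatty acid synthesis genes driven by SREBP-1, 9 were negative (median -0.17). Acly, which supplies cytosolic acetyl-CoA, differed by -0.48 (SE 0.16) and the lipid phosphatase Lpin1 by 0.38 (SE 0.14). SREBP processing and sterol-dependent degradation genes had a median of -0.13 (9 of 12 negative; Erlin1 -0.30 and Pgrmc1 -0.29). Liver X receptors and lipoprotein remodelling genes had -0.08 (8 of 10; Pltp, the phospholipid transfer protein, -0.32, and Lpcat3 -0.29). For sterol ester and transport genes it was -0.14 (11 of 15), with the esterifying enzyme Soat2 at -0.54 and the lipoprotein receptor Vldlr at 0.73. Oxysterol, sulfate and steroid enzymes had -0.13 (8 of 10; Hsd3b6 as above and Srd5a1, the testosterone reductase, -0.33). Isoprenoid branches other than sterols had -0.04 (8 of 13), with Pdss2 of ubiquinone synthesis at 0.55 and Srd5a3 at -0.30. None of the genes in these 6 lists passed the adjusted threshold. At an unadjusted p under 0.05 by limma, 1, 0, 0, 1, 1 and 0 were lower and 2, 0, 0, 0, 0 and 1 higher, in the order given. Over all features 62.7% were negative, and 5.15% were lower and 6.32% higher at that p.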

How the data were processed

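The authors deposited spot intensity values written by Agilent's Feature Extraction software (version 11.5.1.1), background-subtracted and detrended within each array and not normalized between arrays, per the file headers, with deposited flags of another kind for spots well above background, saturated or outlying. A value table on a log2 scale, deposited by the authors, was used only to check its headings; the sources used here do not give its steps, though limma is among the tools of the submitters' processing notes. Replicate spots were combined as mean log2 values after outlier spots were dropped, which left 55650 of 55681 probes, and each array's 75th percentile over probes was subtracted. Accessions were matched without versions to RefSeq symbols of assembly GRCm38.p6, naming 27497 probes. A probe stayed (30081 did) if either group had it well above background on all 3 arrays; the brightest such probe stood for its gene, and probes without a symbol were features of their own.

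Groups came from sample titles. The KO against WT test was two-sided, by limma 3.58.1 under R 4.3.3 (lmFit and eBayes without covariates), with Benjamini-Hochberg adjustment over 25666 features and a threshold of 0.05. On simulated data for this comparison (25666 features, 10 runs) the fit recovered 41.6% of changes of 1 log2 unit and 97.7% of changes of 3, with 4.59% false calls. Members and lists were chosen with earlier results of these data known. All 31 genes are named; array values are given where groups do not overlap and for the 2 smallest p-values per role, and 2 genes are named per other list. The planned normexp correction used median spot signals, the spot signal these files hold. The replicate numbers were checked for pairing. Deviations of same-numbered arrays correlated at -0.12, -0.04 and 0.08, and those of differently numbered arrays at -0.08 to 0.12. With 3 arrays per group this cannot exclude a pairing, and the reported fit used none. Alternatives concerned normalization, dim probes, choice of probe, unnamed features and the 2 KO arrays with high hair genes (both added after seeing the data), slide, age, muscle markers and single arrays.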

Additional observations from a re-analysis of the deposited data

How the results depend on the processing

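The number of arrays limits every value. Over the settings run, the median of the 31 sterol genes stayed negative; it was -0.044 within slide 1 (17 genes negative, against 28), -0.59 with age and -0.035 with the muscle marker level as a covariate, and -0.52 to -0.25 with 1 array left out. Genes below the adjusted threshold numbered 1 (Hsd17b7) with normexp and quantile normalization, 0 to 1 with 1 array left out and 0 otherwise; 27 to 29 genes were negative and 12 to 21 genes did not overlap with 1 array left out, where fewer arrays make overlap rarer: without WT replicate 1, 67.7% of the 31 and 26.4% of all features lay lower without overlap, without KO replicate 3 48.4% and 24.8%, and without each other array 38.7% to 41.9% and 14.5% to 16.3%. Within slide 1, 11 genes turned positive, from Ebp at 0.027 to Sc5d at 0.27, and within slide 2 Srebf1 (-0.023) and Mylip (-0.091) turned negative. Other sign changes were: Lbr -0.059 for the mean of its probes, -0.19 for its dimmest probe, -0.056 with KO replicates 1 and 2 left out and -0.011 to 0.14 with 1 array left out; Dhcr7 0.034 with slide as a block; Srebf1 -0.042 with age and -0.013 to 0.14 with 1 array left out; Srebf2 -0.32 to 0.10 with 1 array left out. With the muscle covariate Mvk was at 0.27, Fdps 0.15, Sqle 0.11, Nsdhl 0.27, Sc5d 0.27, Dhcr7 0.46, Srebf2 0.24, Insig1 0.37 and Mylip -0.019. The causes were not tested. With the replicate block the median was -0.33, no gene of the 31 passed (smallest adjusted p = 0.453, for Hsd17b7) and all calls over all features, 3 without the block, were lost. Calls over all features were 8 with normexp and quantile normalization (1 higher), 11 with quantile normalization of the processed signal (2 higher), 7 for probes above background on all arrays (2 higher), 5 with unnamed probes joined by accession (1 higher), 0 with slide, age or muscle level in the fit or with KO replicates 1 and 2 left out, 242 without WT replicate 1 (216 higher), 87 without KO replicate 3 (71 higher) and 2 with no filter on dim probes or with any other single array left out; the 3 of the reported fit were all lower.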
